A study of Mus musculus with 12 samples.

Results

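The comparison described here sets OPCs that received MSC-EVs directly against OPCs that received i-EVs, without passing through the untreated cells. It rests on 3 MSC-EVs arrays and 3 i-EVs arrays, 6 of the 12 arrays of the series, chosen by their labels. On each array 65535 transcript clusters were measured, and 30077 genes carried a symbol of their own and were kept with 1 cluster each. OPCs, the oligodendrocyte precursor cells that divide, leave the cell cycle and turn into myelin-forming oligodendrocytes, were primary cells sorted by the PDGFRα antigen CD140a from whole brains of C57BL/6 pups at postnatal day 2, plated at 300000 cells per well and grown for 48 h in proliferation medium. They were then switched to differentiation medium, received 50 µl of EVs about 4 h later (2 donor microglia per OPC) and were lysed at 24 h of differentiation. EVs, the membrane vesicles that cells shed with RNA, protein and lipid cargo, came from primary microglia of the same strain and age. MSC-EVs came from microglia held with the cytokines IL-1β, TNF and IFN-γ while sharing their medium with bone marrow mesenchymal stem cells through a Transwell membrane. i-EVs came from microglia held with the same cytokines and no stem cells, so that the cytokines and the ATP pulse that released the vesicles were common to both groups. MSCs and cytokine medium were taken away before the ATP pulse. The other 6 arrays, 3 of IL4-EVs from microglia held with IL4 and 3 of CTRL cells in medium alone, entered the fit for its spread.

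Both groups had the markers of their label. Olig2, a transcription factor of the oligodendrocyte lineage, lay at 19.08, 19.08 and 19.10 log2 units with MSC-EVs and at 19.08, 19.26 and 19.09 with i-EVs, and 23 of 27 oligodendrocyte precursor genes averaged 6 log2 units or more in each group. Pdgfra, the antigen of the sort, was not analysed under a symbol of its own. All 22 microglia markers measured had a mean under 6 log2 units in both groups, and their summed linear level was 256 to 269 intensity units with MSC-EVs and 270 to 284 with i-EVs, next to 1358498 to 1636699 and 1551371 to 1583010 units for the oligodendrocyte precursor genes. In RNA from a whole culture, fewer cells of a type and less RNA per cell cannot be told apart.

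The arrays of both groups were uneven. MSC-EVs replicate 3 was the farthest from its own group (mean distance over all clusters 75.3, against 67.0 and 67.6 for MSC-EVs replicates 1 and 2), and i-EVs replicate 2 was the farthest of its group (64.9, against 59.0 and 56.7 for i-EVs replicates 1 and 3). Array weights, which give a deviating array less say in the fit, were lowest for these 2 arrays, at 0.435 for MSC-EVs replicate 3 and 0.442 for i-EVs replicate 2. Arrays of the MSC-EVs group lay 70.0 from each other on average and arrays of the i-EVs group 60.2, while the distance from an MSC-EVs to an i-EVs array averaged 75.2, so that the gap between the groups was little wider than the gaps inside them. Values from the fit that leaves out MSC-EVs replicate 3 and i-EVs replicate 2 are given as values "without both arrays".

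With MSC-EVs, 524 clusters were differentially expressed (DEGs, fold of at least 1.5 and Benjamini-Hochberg adjusted p under 0.05 in limma), 466 higher (0.711% of those tested) and 58 lower (0.0885%) than with i-EVs. Most DEGs carried no gene symbol: 431 of those higher and 29 of those lower. The DEGs that were higher were dim, with a median level of 5.73 log2 units over the 12 arrays, and 216 of them averaged 6 log2 units or more. The DEGs that were lower were bright, with a median level of 10.79 log2 units. Among the DEGs with a symbol, 16 protein-coding genes, 6 lncRNAs, 4 small nuclear RNAs and 3 small nucleolar RNAs were higher, while 5 protein-coding genes and 17 pseudogenes were lower.

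For single genes and gene lists, rose and fell mean an adjusted p under 0.05 with MSC-EVs relative to i-EVs, with no fold threshold. By this rule 135 named genes rose (0.449%) and 160 fell (0.532%), and quantile normalization over again moved this split to 171 that rose and 311 that fell. The genes that rose had a median log2 difference of 0.46 (range 0.27 to 1.42) and those that fell one of -0.45 (range -0.89 to -0.26), next to -0.04 over all named genes. Differences of this size are modest: the largest rise was 2.67-fold. The shares of 0.449% and 0.532% are the background for all counts of list members that rose or fell. For counts at unadjusted p under 0.05 the background is 10702 of the 65535 clusters in the same limma fit. In all 295 genes the 3 MSC-EVs values lay apart from the 3 i-EVs values, on a background of 5.71% of named genes with every MSC-EVs array above every i-EVs array and 13.0% with every MSC-EVs array below.

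These calls depended on which arrays entered the fit. Without i-EVs replicate 1, limma called 0 named genes (9 DEGs in all, 9499 clusters at unadjusted p under 0.05). Without both arrays it called 0 named genes higher and 3 lower (0.00997%), namely Sdhd, Rps10-ps2 and Gm10177, and 8967 clusters were at unadjusted p under 0.05. Fitted on the 6 arrays alone it called 0 clusters (7626 at unadjusted p under 0.05), with 0.137 as the smallest adjusted p, and the plain linear model without moderation gave 2 named genes higher and 4 lower. Without MSC-EVs replicate 3 the counts were 10 higher and 8 lower, without i-EVs replicate 2 they were 15 and 79, without i-EVs replicate 3 they were 22 and 14, without MSC-EVs replicate 1 they were 66 and 98, and without MSC-EVs replicate 2 they were 217 and 352. Leaving out a CTRL or IL4-EVs array, which does not enter the difference itself, also cut the counts. They were 104 higher and 95 lower without CTRL replicate 1, 65 and 67 without CTRL replicate 2, and 80 and 73 without CTRL replicate 3. Without 1 of the IL4-EVs arrays they were 71 to 79 higher and 60 to 67 lower. Without both arrays all 295 genes kept their sign, which was fixed in advance because their MSC-EVs and i-EVs values did not overlap. All 295 also had an unadjusted p under 0.05 in limma there. They were picked with the same arrays, so this is no separate evidence for the direction. Their median log2 difference without both arrays was 0.37 for the 135 genes that rose and -0.46 for the 160 that fell.

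**Figure D1:**
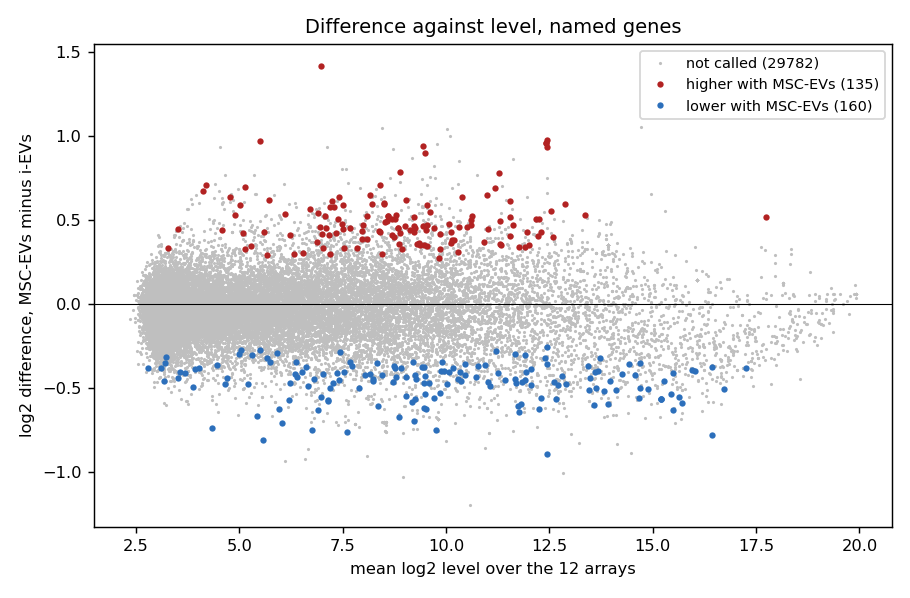
Each point is one of the 30077 named genes; the x axis is its mean level over the 12 arrays in log2 units and the y axis its log2 difference, MSC-EVs minus i-EVs. The 135 genes that rose (red) and the 160 that fell (blue) with MSC-EVs lie between -0.89 and 1.42, next to 29782 genes that were not called (grey).

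Among the protein-coding genes with the largest rises were Fat1 and Lrp1, a pair of large cell surface proteins. Fat1 is a giant protocadherin that takes part in cell adhesion and Hippo signalling. It lay at 10.03, 9.98 and 10.63 log2 units with MSC-EVs and at 9.33, 9.24 and 9.25 with i-EVs, a log2 difference of 0.94 ± 0.17 (SE, n = 3 each; adjusted p = 0.0285), with MSC-EVs replicate 3 the highest array and no overlap. Lrp1, an endocytic receptor of the LDL receptor family that takes up myelin debris and lipoproteins, lay at 11.94, 11.84 and 12.11 with MSC-EVs and at 11.17, 11.20 and 11.17 with i-EVs, a difference of 0.78 ± 0.12 (adjusted p = 0.0258). All 3 MSC-EVs arrays were above the i-EVs arrays, and the difference without both arrays was 0.72. Its relative Lrp6, the coreceptor of Wnt ligands, rose by 0.43, while Lrp1b, at 0.39, did not pass (adjusted p = 0.169). In all, 2 of 14 members of the LDL receptor family rose and 0 fell, with a median difference of 0.08.

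Single scaffold and motor proteins of the cytoskeleton rose too. Dst, a linker of actin, microtubules and intermediate filaments, lay at 9.57, 9.38 and 9.41 log2 units with MSC-EVs and at 8.72, 8.62 and 8.67 with i-EVs, a difference of 0.79 ± 0.10 (adjusted p = 0.0194), and the arrays of the 2 groups were apart by more than the spread within either. This gene was called in 17 of 21 alternative settings, some of which only leave out a CTRL or IL4-EVs array. It was not called without both arrays, without i-EVs replicate 1, on the 6 arrays alone or in the plain linear model. Akap9, a scaffold that holds protein kinase A at the Golgi and centrosome, lay at 8.92, 8.91 and 9.05 with MSC-EVs and at 8.21, 8.22 and 8.33 with i-EVs, a difference of 0.70 ± 0.08 (adjusted p = 0.0149). Without both arrays Dst differed by 0.79 and Akap9 by 0.64. Dync1h1, the heavy chain of the dynein motor, rose by 0.69 ± 0.13 (11.68, 11.58 and 11.99 with MSC-EVs, 11.11, 11.02 and 11.06 with i-EVs; adjusted p = 0.0308), and the spectrins Sptbn1 and Sptan1, which form the mesh under the plasma membrane, rose by 0.41 and 0.34. Of 19 cytoskeletal linkers, spectrins and ankyrins 3 rose and 0 fell, and the median difference was 0.01.

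Chromatin regulators rose in larger number: 13 of 32 chromatin remodelers and histone methyltransferases were called higher and 0 lower, where 0.449% of named genes rose. All 32 had a positive difference, and the median was 0.34, next to -0.035 over the 9406 named genes with a mean of at least 6 log2 units. Long genes shared part of this shift. The list has a median genomic span of 82.07 kb, and protein-coding genes of 50 to 100 kb with that mean had a median of 0.07. Of these protein-coding genes 2.75% rose. Chd7, a remodeler that works with Sox10 in the oligodendrocyte lineage, lay at 10.77, 10.70 and 11.24 log2 units with MSC-EVs and at 10.27, 10.21 and 10.33 with i-EVs, a difference of 0.63 ± 0.12 (adjusted p = 0.0354). MSC-EVs replicate 3 was again the highest, and the difference without both arrays was 0.44. Crebbp, a histone acetyltransferase, rose by 0.61 ± 0.10, with 11.97, 11.99 and 12.19 with MSC-EVs and 11.41, 11.37 and 11.53 with i-EVs (adjusted p = 0.0258). Kmt2d, which methylates histone H3 at enhancers, rose by 0.57 ± 0.08 and was called in 17 of 21 settings, losing the call in the same settings as Dst. The list kept a median of 0.27 without both arrays, with 31 of its 32 members positive.

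Ubiquitin ligases of very large size behaved alike, with 6 of 16 higher (Birc6, Hectd4, Herc1, Herc2, Mycbp2 and Ubr4) and 0 lower and a median difference of 0.26 (0.18 without both arrays). Their median genomic span was 127.9 kb. Protein-coding genes of 100 to 200 kb with a mean of at least 6 log2 units had a median difference of 0.09, and 5.7% of them rose. Herc1 lay at 8.63, 8.42 and 8.90 log2 units with MSC-EVs and at 7.97, 7.99 and 8.05 with i-EVs, a difference of 0.65 ± 0.11 (adjusted p = 0.0276). Mycbp2, a ligase that limits axon growth and synapse formation, rose by 0.59, Herc2 by 0.59 and Hectd4 by 0.52. Hectd4 lay at 8.55, 8.52 and 8.50 with MSC-EVs and at 7.98, 7.96 and 8.07 with i-EVs, with no overlap between the groups.

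Among signalling genes, Nf1, the neurofibromin that turns Ras off, lay at 11.57, 11.35 and 11.69 log2 units with MSC-EVs and at 10.91, 10.83 and 10.93 with i-EVs, a difference of 0.65 ± 0.11 (adjusted p = 0.0258). It was the 1 of 31 mTOR, AKT and Ras-ERK regulators that rose, in a list with a median of 0.17 (0.07 without both arrays). Apc, a scaffold of the complex that destroys β-catenin, rose by 0.55 (12.99, 12.88 and 13.05 with MSC-EVs, 12.31, 12.41 and 12.54 with i-EVs) and was with Lrp6 one of 2 of 34 Wnt pathway genes that rose. Igf1r, the receptor of the growth factor IGF-1, rose by 0.58 ± 0.12 (adjusted p = 0.0471), but its value rested in part on MSC-EVs replicate 3, at 7.41, 7.43 and 7.96 with MSC-EVs and 7.02, 6.95 and 7.09 with i-EVs, and was 0.36 without both arrays. Sema6a, a guidance cue of the semaphorin family, rose by 0.45, and Bmpr2, a receptor for bone morphogenetic proteins, was 0.43 higher and missed the threshold (adjusted p = 0.0572). Wdfy3, an autophagy adaptor, rose by 0.62, Fryl, a large scaffold, by 0.60, and Golga4, a golgin that tethers vesicles at the trans-Golgi, by 0.61. Pcdh15, a protocadherin of OPCs, rose by 0.43 and was the 1 of 27 oligodendrocyte precursor genes called.

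**Figure D2:**
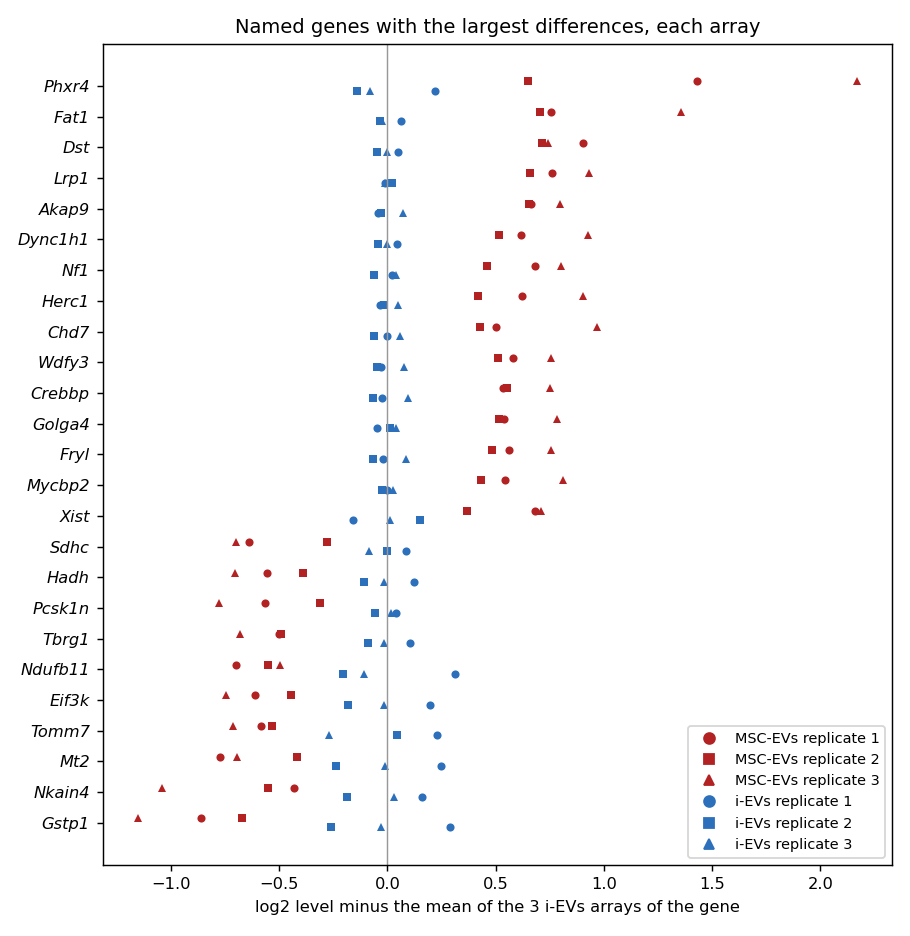
Log2 level in each array minus the mean of the gene's 3 i-EVs arrays (x axis) for the 15 named genes with the largest rises and the 10 with the largest falls (y axis), MSC-EVs in red and i-EVs in blue, with circles, squares and triangles for replicates 1, 2 and 3. The MSC-EVs and i-EVs points do not overlap in these 25 genes because only genes without overlap were chosen. In most of the genes that rose MSC-EVs replicate 3 is the farthest to the right.

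Many of the genes that rose were long. A list of 72 very long mRNAs had 26 members that rose and 0 that fell, where 0.449% of named genes rose. Its median genomic span was 165 kb, and 44 members averaged 6 log2 units or more. Among protein-coding genes with that mean, 5.7% of those of 100 to 200 kb rose and 5.1% of those of 200 to 400 kb. In 51 members every MSC-EVs array lay above every i-EVs array, against 5.71% of named genes. The list had a median difference of 0.35 (0.27 without both arrays and 0.35 without i-EVs replicate 1). It overlaps the lists above: 8 of the 13 chromatin regulators and 6 of the 6 ubiquitin ligases that rose are members, so these are not separate observations, and some of the genes named above were taken from it. Over protein-coding genes, the genomic span from the first to the last base of the RefSeq gene had a median of 104.5 kb in the 107 that rose, 7.14 kb in the 99 that fell and 28.2 kb in the 6964 with a mean of at least 6 log2 units. Of the 107 genes, 56 spanned over 100 kb and 2 under 10 kb, while of the 99 genes 1 spanned over 100 kb and 70 under 10 kb.

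The trend ran through the genes that were not called as well. Among the 6964 genes, the median log2 difference was -0.18 for genes under 5 kb, -0.13 from 5 to 10 kb, -0.07 from 10 to 20 kb, -0.0047 from 20 to 50 kb, 0.07 from 50 to 100 kb, 0.09 from 100 to 200 kb, 0.13 from 200 to 400 kb and 0.12 over 400 kb. Without both arrays it ran in the same way, with -0.21 under 5 kb and 0.10 over 400 kb. In each array, the median level of the 1037 genes over 100 kb minus that of the 1354 genes under 10 kb, each gene taken relative to its i-EVs mean, was 0.26, 0.24 and 0.28 log2 units with MSC-EVs and -0.05, 0.01 and 0.05 with i-EVs. By this measure MSC-EVs replicate 3 did not stand apart from its group and i-EVs replicate 2 lay between the other i-EVs arrays. The same quantity was 0.15, 0.22 and 0.18 with IL4-EVs and -0.30, -0.21 and -0.23 in CTRL cells, which share the scale set by the i-EVs arrays. Genes are not independent replicates and no test was made on the trend. The study set a minimum for RNA integrity, its value per sample is not analysed here, and its part in the result was not tested.

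**Figure D3:**
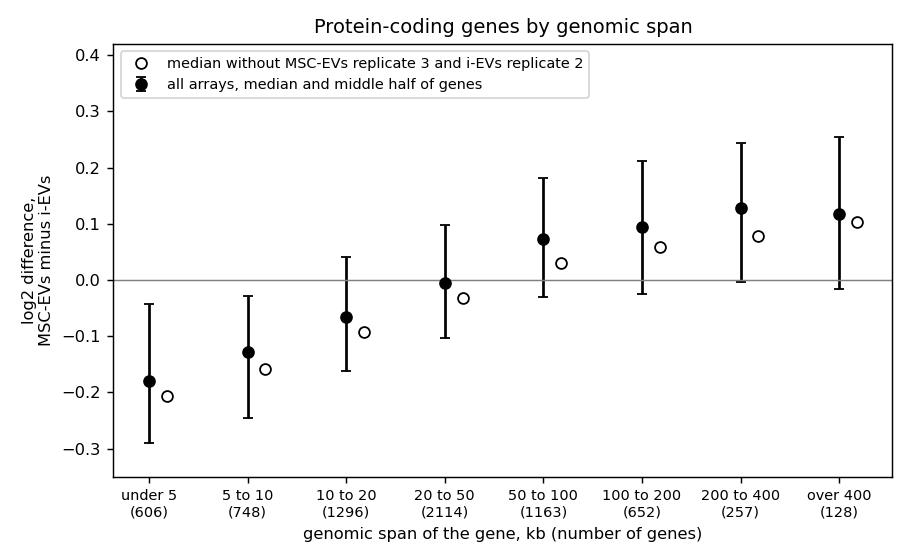
Median log2 difference, MSC-EVs minus i-EVs (y axis), of protein-coding genes with a mean of at least 6 log2 units in 8 classes of genomic span in kb (x axis, number of genes in brackets), with all arrays and without MSC-EVs replicate 3 and i-EVs replicate 2. The medians go from -0.18 in the shortest class to 0.12 in the longest.

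Lists of splicing regulators and of long nuclear noncoding RNAs were added after the data were seen. The lists above were not chosen blind either, since earlier results of these data were known. Beside the counts that follow, 0.449% of all named genes rose and 0.532% fell. Of 25 SR, Luc7 and nuclear speckle splicing regulators 9 rose and 0 fell, 16 were not called (5 of the 25 had a negative difference), and the median was 0.17 (0.06 without both arrays). Luc7l3, a U1-associated splicing factor, lay at 10.91, 10.84 and 11.06 log2 units with MSC-EVs and at 10.40, 10.32 and 10.54 with i-EVs, a difference of 0.52 ± 0.08 (adjusted p = 0.0253). Srrm2, Rbm25 and Son, which build and fill nuclear speckles, rose by 0.51, 0.46 and 0.41. Of 8 long nuclear noncoding RNAs 4 rose. Malat1, the speckle RNA, lay at 18.22, 17.84 and 18.23 with MSC-EVs and at 17.58, 17.56 and 17.62 with i-EVs (0.52 ± 0.11, adjusted p = 0.0446), and was called in 4 of 21 settings, the replicate block not among them. Kcnq1ot1, the antisense RNA of an imprinted domain, rose by 0.71 at a dim level (4.66, 4.64 and 4.80 with MSC-EVs, 3.97, 4.12 and 3.89 with i-EVs). Xist, which coats the inactive X chromosome of female cells, rose by 0.59, with 13.51, 13.20 and 13.54 with MSC-EVs and 12.67, 12.98 and 12.84 with i-EVs, while 0 of 3 Y-linked genes were called by limma (0 at unadjusted p under 0.05). The sex of the pups behind each array is not among the labels. Phxr4, a short lncRNA, had the largest rise, 1.42 ± 0.30 (adjusted p = 0.0456), with 8.03, 7.24 and 8.76 with MSC-EVs and 6.81, 6.45 and 6.51 with i-EVs. Its MSC-EVs arrays spread over more than a log2 unit and it was called in 5 of 21 settings.

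Most protein-coding genes that fell were short, and the nuclear-encoded subunits of oxidative phosphorylation were among them. The median level of the protein-coding genes that fell, 9.49 log2 units, was close to the 9.23 of the protein-coding genes that rose. The subunits form complexes I to V of the inner mitochondrial membrane, which pass electrons to oxygen and make ATP. Of 39 subunits of complexes II to V 9 fell (Atp5d, Atp5g2, Cox5b, Cox6b1, Cox7a2l, Cox8a, Cyc1, Sdhc and Sdhd) and 0 rose, where 0.532% of named genes fell. In this list 38 had a negative difference, and 28 had every MSC-EVs array below every i-EVs array, against 13.0% of named genes. The median was -0.28 (-0.32 without both arrays). Part of this is shared with short genes: the list has a median span of 6.75 kb. The class of 5 to 10 kb given above had a median of -0.13, and 3.61% of its genes fell. Of 32 subunits of complex I 2 fell, Ndufb11 and Ndufs8, all 32 had a negative difference, and the median was -0.24 (-0.28 without both arrays). i-EVs replicate 1 was the highest of the 6 arrays for 31 of the 32 and for 30 of the 39 genes, and without it the medians were -0.16 for complex I and -0.23 for complexes II to V.

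Sdhd, a membrane anchor of complex II, the succinate dehydrogenase, lay at 10.52, 10.59 and 10.82 log2 units with MSC-EVs and at 11.24, 11.00 and 11.15 with i-EVs, a difference of -0.49 ± 0.08 (adjusted p = 0.0270). It was the 1 protein-coding gene still called without both arrays, where its difference was -0.64 (adjusted p = 0.0365), and it was called in 16 of 21 settings. Without i-EVs replicate 1 its adjusted p was 0.0925. Sdhc, the other anchor, fell by 0.54 on the log2 scale. Atp5g2, which encodes the ring subunit of the ATP synthase, lay at 16.45, 16.39 and 16.34 with MSC-EVs and at 17.02, 16.78 and 16.91 with i-EVs (-0.51 ± 0.08, adjusted p = 0.0258), with tight and separate groups. Cox6b1, of cytochrome c oxidase, lay at 14.90, 14.91 and 14.91 with MSC-EVs and at 15.56, 15.28 and 15.27 with i-EVs (-0.46 ± 0.08, adjusted p = 0.0261). In the complex I list, Ndufb11 fell by 0.58 and Ndufs8 by 0.46, calls made in 3 and 5 of 21 settings and lost with a replicate block, while Ndufa13, at -0.41, missed the threshold (adjusted p = 0.0517). The mRNAs that mitochondrial DNA itself encodes were not measured in the named genes.

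Other mitochondrial genes fell in smaller number, next to 0.532% of all named genes that fell. Hadh, of fatty acid oxidation, lay at 8.61, 8.77 and 8.46 log2 units with MSC-EVs and at 9.29, 9.05 and 9.14 with i-EVs (-0.55 ± 0.09, adjusted p = 0.0259), and 4 of 19 genes of mitochondrial fatty acid oxidation fell with a list median of -0.19, in a list added after the data were seen. Tomm7, of the outer membrane import pore, fell by 0.61. Of 21 citric acid cycle genes 3 fell, Idh3b and the 2 complex II genes already named, and the median was -0.04, the same as over all named genes. Of 74 mitochondrial ribosomal proteins 1 fell, Mrpl16 (-0.38), with a median of -0.14.

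Protein synthesis and turnover gave lower medians with few calls. Among 43 cytosolic ribosomal proteins limma called 0 (23 at unadjusted p under 0.05), and the median was -0.19. Rplp0, of the ribosomal stalk, lay at 13.10, 12.96 and 12.72 with MSC-EVs and at 13.45, 13.29 and 13.27 with i-EVs, a difference of -0.41 (adjusted p = 0.0586). Eif3k, a subunit of the initiation factor eIF3, fell by 0.60 ± 0.10 on the log2 scale (11.34, 11.51 and 11.21 with MSC-EVs, 12.15, 11.77 and 11.94 with i-EVs; adjusted p = 0.0258), while the GTPase Eif5b rose by 0.37, so that 1 of 27 translation factors went each way. Of 38 proteasome subunits Psmb6 (-0.40) and Psmd6 (-0.28) fell and the list median was -0.13, but Psmd6 was called in 2 of 21 settings and not with a replicate block. Of 44 lysosome and endocytosis genes Hexa, a lysosomal hexosaminidase, fell (-0.37), with a median of -0.11.

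Detoxifying enzymes had the largest fall among protein-coding genes. Gstp1, a glutathione transferase, lay at 11.82, 12.01 and 11.53 log2 units with MSC-EVs and at 12.97, 12.42 and 12.65 with i-EVs, a difference of -0.89 ± 0.14 (adjusted p = 0.0258), and the same -0.89 without both arrays. Its highest MSC-EVs array stood below its lowest i-EVs array. A second transferase, Gstm5, fell by 0.47, and the 26 antioxidant and detoxifying enzymes had a median of -0.19, with 2 lower and 0 higher. Mt2, a metallothionein that binds zinc and copper, lay at 9.23, 9.58 and 9.31 with MSC-EVs and at 10.25, 9.76 and 9.99 with i-EVs (-0.63 ± 0.13, adjusted p = 0.0409). Other falls among the largest were Nkain4, which binds the sodium pump (-0.67), Tbrg1, a growth regulator (-0.56), and Pcsk1n, an inhibitor of a prohormone convertase (-0.55).

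Pseudogenes took a larger share of the genes that fell than of those that rose: 54 of 160 (33.75%), against 2 of 135 (1.48%), with 15.52% among all named genes. Of 205 ribosomal protein pseudogenes 15 fell and 0 rose, where 0.532% of named genes fell. The median was -0.29 (-0.39 without both arrays and -0.18 without i-EVs replicate 1). For 186 of the 205, i-EVs replicate 1 was the highest of the 6 arrays. Rps10-ps2 lay at 8.74, 8.82 and 8.63 log2 units with MSC-EVs and at 9.56, 9.13 and 9.59 with i-EVs (-0.70 ± 0.12, adjusted p = 0.0258), and Gm10177 at 12.48, 12.53 and 12.49 with MSC-EVs and at 13.11, 12.73 and 13.10 with i-EVs (-0.48 ± 0.09, adjusted p = 0.0341). Probes of a processed pseudogene can share sequence with the mRNA of its parent gene, so these clusters and those of the ribosomal proteins are uncertain as separate measurements.

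**Figure D4:**
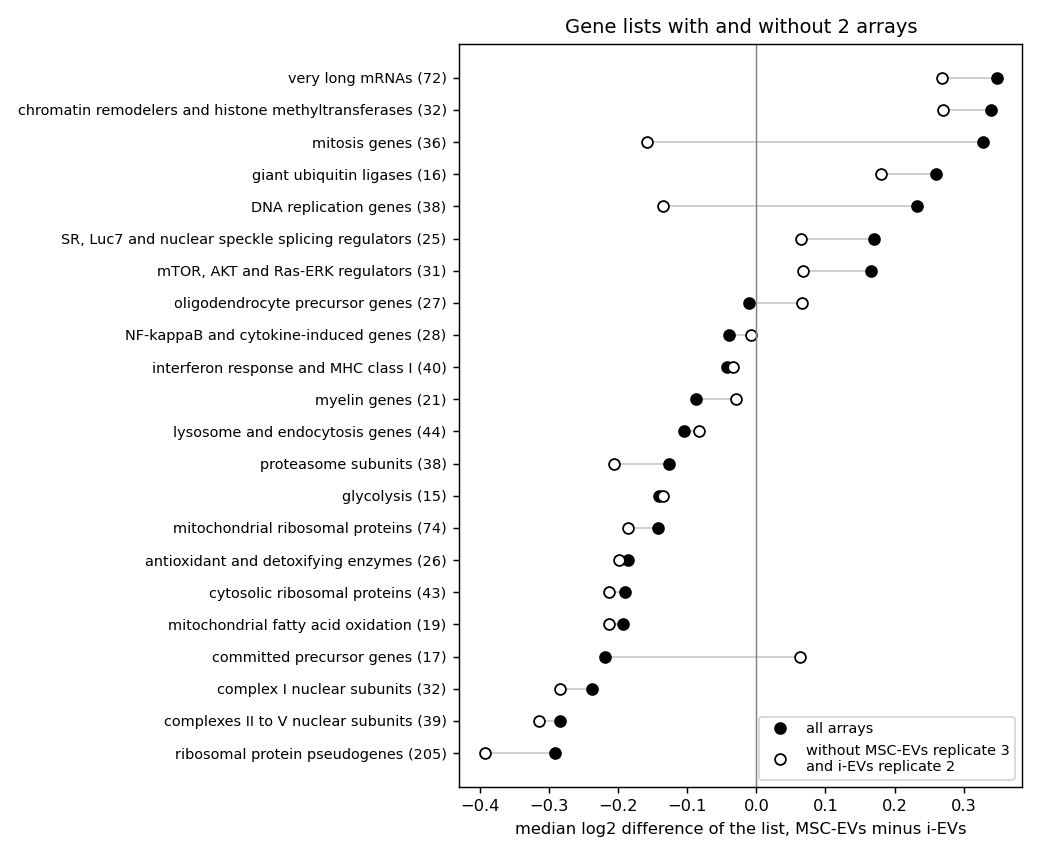
Median log2 difference, MSC-EVs minus i-EVs (x axis), of 22 gene lists (y axis, number of genes measured in brackets), with all arrays (filled) and without MSC-EVs replicate 3 and i-EVs replicate 2 (open). Very long mRNAs (0.35 and 0.27) and complexes II to V (-0.28 and -0.32) keep their side of 0, whereas mitosis genes (0.33 and -0.16), DNA replication genes (0.23 and -0.13) and committed precursor genes (-0.22 and 0.06) change sides.

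Promoters are shown for 6 of these genes because members of a group moved together, 4 from the genes that fell and 2 from the long genes that rose. Each is the RefSeq window on GRCm38.p6 in the direction of transcription, from 250 bases before the start of the gene to 30 after it. Capitals mark a match, on either strand, to the letters CCGGAAG of ETS factors, AAGATGG of YY1 or GCGCATGC of NRF1, which are factors known to act at genes of mitochondrial proteins. Sdhd lies at chr9:50603820-50604099 on the minus strand, Cox6b1 at chr7:30626085-30626364 (minus), Atp5g2 at chr15:102671018-102671297 (minus), Gstp1 at chr19:4037883-4038162 (minus), Nf1 at chr11:79339642-79339921 (plus) and Lrp1 at chr10:127621119-127621398 (minus).
Sdhd: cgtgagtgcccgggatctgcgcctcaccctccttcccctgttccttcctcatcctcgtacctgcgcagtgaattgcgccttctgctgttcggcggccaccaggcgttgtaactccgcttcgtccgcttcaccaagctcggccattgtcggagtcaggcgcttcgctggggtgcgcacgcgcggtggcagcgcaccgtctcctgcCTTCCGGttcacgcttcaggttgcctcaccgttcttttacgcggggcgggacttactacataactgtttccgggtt
Cox6b1: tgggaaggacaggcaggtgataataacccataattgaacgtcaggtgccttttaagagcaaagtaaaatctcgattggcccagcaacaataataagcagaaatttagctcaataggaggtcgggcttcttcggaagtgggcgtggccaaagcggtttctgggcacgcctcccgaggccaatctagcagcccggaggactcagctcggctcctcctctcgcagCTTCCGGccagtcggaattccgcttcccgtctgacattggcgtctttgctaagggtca
Atp5g2: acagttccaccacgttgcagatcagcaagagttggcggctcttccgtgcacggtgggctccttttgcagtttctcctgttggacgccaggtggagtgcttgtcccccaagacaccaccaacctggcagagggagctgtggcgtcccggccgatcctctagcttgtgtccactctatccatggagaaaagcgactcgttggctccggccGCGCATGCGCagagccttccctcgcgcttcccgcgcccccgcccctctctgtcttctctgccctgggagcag
Gstp1: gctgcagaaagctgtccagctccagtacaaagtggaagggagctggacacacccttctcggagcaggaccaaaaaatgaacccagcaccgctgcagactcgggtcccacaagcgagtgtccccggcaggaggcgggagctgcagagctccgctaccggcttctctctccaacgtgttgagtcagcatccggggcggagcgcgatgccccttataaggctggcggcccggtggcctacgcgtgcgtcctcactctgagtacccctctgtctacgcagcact
Nf1: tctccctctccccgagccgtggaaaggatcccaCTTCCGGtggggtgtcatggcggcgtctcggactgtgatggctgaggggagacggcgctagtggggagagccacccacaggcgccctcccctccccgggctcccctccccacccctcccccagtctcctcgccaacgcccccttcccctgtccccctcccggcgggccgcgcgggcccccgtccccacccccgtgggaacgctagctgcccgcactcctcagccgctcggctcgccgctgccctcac
Lrp1: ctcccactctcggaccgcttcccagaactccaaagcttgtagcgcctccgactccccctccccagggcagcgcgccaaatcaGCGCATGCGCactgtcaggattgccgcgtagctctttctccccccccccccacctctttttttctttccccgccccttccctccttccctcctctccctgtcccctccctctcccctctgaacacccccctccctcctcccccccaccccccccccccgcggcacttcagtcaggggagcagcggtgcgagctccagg
Sdhd and Cox6b1, which fell, and Nf1, which rose, each had 1 ETS match, nearer the start of the gene in the genes that fell than in Nf1. Atp5g2, which fell, and Lrp1, which rose, each had NRF1 matches on both strands that overlap each other, and Gstp1 had no match in this window.

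Across genes, 77 of 87 protein-coding genes that fell with a mean of at least 6 log2 units had a promoter window, and 28 of them (36.36%) held the ETS letters in at least 1 of their windows. Of the 79 genes that rose and had a window 15 held them (18.99%), as did 22.33% of the 5741 protein-coding genes with that mean and 9.48% of all 27025 genes with a window (8.45% of the 32851 windows). Counted by gene in the same way, the YY1 letters stood in 14.29% of the genes that fell, 6.33% of those that rose, 7.89% of the genes with that mean and 6.47% of all genes with a window, and the NRF1 letters in 9.09%, 10.13%, 7.07% and 2.92%. The letters CCAAT on either strand stood in 48.05% of the genes that fell, 25.32% of those that rose, 43.55% of the genes with that mean and 39.73% of all genes with a window, with 3 matches in Cox6b1. Of the nuclear-encoded subunits of oxidative phosphorylation 60 had a window. The ETS letters stood in 26.67% of these, the YY1 letters in 8.33%, the NRF1 letters in 13.33% and CCAAT in 40.0%. No test was made on these shares, and a match is a stretch of letters and not a binding site. GC content averaged 58.67% in the windows of genes that fell and 64.72% in those that rose.

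Cell cycle genes depended on 1 array. Mki67, a protein of dividing cells, lay at 14.92, 14.69 and 16.69 log2 units with MSC-EVs and at 14.35, 14.40 and 14.39 with i-EVs, a difference of 1.05 ± 0.38 that did not pass (adjusted p = 0.190). MSC-EVs replicates 1 and 2 were also above the i-EVs arrays, by less, and without both arrays the difference was 0.44. Over 36 mitosis genes limma called 0 (4 at unadjusted p under 0.05), MSC-EVs replicate 3 was the highest of the 6 arrays for all 36, and the median of 0.33 was -0.16 without both arrays, where 7 of 36 were positive. The 38 DNA replication genes, also with 0 called (0 at unadjusted p under 0.05), had a median of 0.23, or -0.13 without both arrays, with MSC-EVs replicate 3 the highest for all 38. Relative to the i-EVs mean, mitosis genes lay at -0.14, -0.11 and 1.27 with MSC-EVs, and in CTRL cells at 0.61, 0.54 and 0.40. Cdk4, the G1 kinase, did not share the jump, at 14.42, 14.34 and 14.48 with MSC-EVs and 14.75, 14.54 and 14.65 with i-EVs.

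Genes of the next stage, the committed oligodendrocyte precursors that stop dividing, went the opposite way in the same array. Bmp4, a secreted bone morphogenetic protein of these cells, lay at 10.89, 10.99 and 7.19 log2 units with MSC-EVs and at 10.90, 10.76 and 11.01 with i-EVs, so that its difference of -1.20 (adjusted p = 0.463) was 0.05 without MSC-EVs replicate 3. Enpp6, a choline phosphodiesterase of newly formed oligodendrocytes, lay at 9.63, 9.49 and 5.13 with MSC-EVs and at 9.05, 8.96 and 9.33 with i-EVs, a difference of -1.03 that was 0.37 without both arrays. In both genes MSC-EVs replicate 3 was far below and the other MSC-EVs arrays were within or above the i-EVs range. Gpr17, the receptor that marks this stage, lay at 18.11, 18.04 and 17.26 with MSC-EVs and at 18.02, 17.93 and 18.04 with i-EVs, and Neu4, a sialidase, was 0.77 lower with all arrays and 0.24 lower without both. Limma called 0 of the 17 committed precursor genes (0 at unadjusted p under 0.05), MSC-EVs replicate 3 was the lowest for 16 of them, and the list median of -0.22 was 0.06 without both arrays. Of 21 myelin genes 0 were called (2 at unadjusted p under 0.05), and Mbp, of compact myelin, was dim at 5.65, 5.69 and 5.01 with MSC-EVs and 5.65, 5.39 and 5.58 with i-EVs.

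Among markers of other cells, Vim and Sox9 were high in the same array, while most members of their lists were not. The summed level of 20 mesenchymal and fibroblast markers was 23491, 24768 and 70253 intensity units with MSC-EVs and 27834, 28438 and 27372 with i-EVs, and that of 15 astrocyte markers was 8171, 8263 and 17992 with MSC-EVs and 8889, 8972 and 9453 with i-EVs. In each list 1 gene made up most of the sum. Vim, an intermediate filament protein that glial precursors express too, lay at 14.50, 14.58 and 16.09 log2 units with MSC-EVs and 14.75, 14.78 and 14.72 with i-EVs, and the other mesenchymal markers summed to 334, 337 and 370 units with MSC-EVs and 354, 355 and 357 with i-EVs. Sox9, a transcription factor of glial cells, was at 4940, 4853 and 14978 units with MSC-EVs and 5228, 5544 and 5933 with i-EVs, and the other astrocyte markers summed to 3231, 3410 and 3014 with MSC-EVs and 3661, 3428 and 3520 with i-EVs. The median of the list relative to the i-EVs mean was -0.06 log2 units for mesenchymal and -0.145 for astrocyte markers in MSC-EVs replicate 3, which was the lowest of the 6 arrays for 10 of the 20 and 10 of the 15 genes. Neuron markers were at 14162 to 15785 units with MSC-EVs and 13035 to 14879 with i-EVs. In each of these lists limma called 0 genes (2 of the mesenchymal, 1 of the astrocyte and 2 of the neuron markers at unadjusted p under 0.05), and their part in the values of MSC-EVs replicate 3 was not tested.

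**Figure D5:**
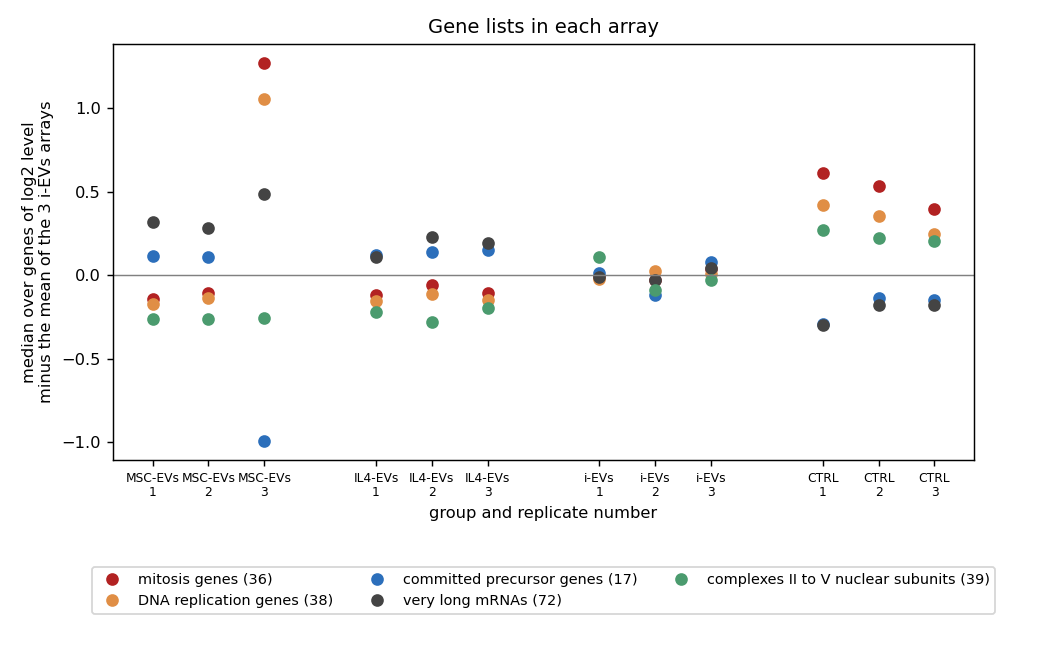
Median over the genes of a list of the log2 level minus the mean of the 3 i-EVs arrays (y axis), in each of the 12 arrays (x axis). Mitosis and DNA replication genes are high and committed precursor genes low in MSC-EVs replicate 3 alone of the MSC-EVs arrays, whereas very long mRNAs (0.32, 0.28 and 0.49) and complexes II to V (-0.26, -0.26 and -0.25) differ from the i-EVs arrays in all 3.

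Genes that answer cytokines were mostly too dim here for a comparison: 3 of 40 interferon response and MHC class I genes, 5 of 28 NF-κB and cytokine-induced genes and 0 of 12 alternative activation genes averaged 6 log2 units or more. Limma called 0 of the 40 interferon genes (5 at unadjusted p under 0.05; median -0.04), 0 of the 28 NF-κB genes (2; median -0.04) and 0 of the 12 alternative activation genes (1; median -0.05). B2m, the light chain of MHC class I, lay at 11.94, 11.92 and 11.92 log2 units with MSC-EVs and at 12.26, 12.13 and 12.27 with i-EVs, a difference of -0.29 (adjusted p = 0.169). Its groups did not overlap, as was the case for 13.0% of named genes in that direction. The cytokines Tnf (2.97, 3.25 and 3.13 with MSC-EVs, 3.10, 3.23 and 3.0 with i-EVs) and Il1b (3.14, 3.07 and 3.02 with MSC-EVs, 3.12, 3.23 and 3.15 with i-EVs) were near the lowest levels of the arrays in both groups. Of 32 cytokine and growth factor receptors Igf1r, given above, was called.

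Genes that brake or steer differentiation gave few calls. Hey1, a Notch target, lay at 9.69, 9.82 and 8.78 log2 units with MSC-EVs and at 10.37, 10.16 and 10.21 with i-EVs, a difference of -0.82 ± 0.21 (adjusted p = 0.0796), and -0.54 without both arrays. Notch1, its receptor, was 0.50 higher (7.32, 7.45 and 7.89 with MSC-EVs, 6.99, 7.06 and 7.12 with i-EVs; adjusted p = 0.0723). Both were apart between the groups and missed the threshold. Sox2, a factor of precursors, was 0.33 higher (adjusted p = 0.118), and Cspg4, the NG2 proteoglycan of OPCs, lay at 9.70, 9.84 and 10.57 with MSC-EVs and at 9.54, 9.67 and 9.72 with i-EVs. Limma called 0 of the 30 Notch pathway genes (9 at unadjusted p under 0.05) and 0 of the 20 genes that the study's qPCR panels and regulator lists name (5 at unadjusted p under 0.05). Plxna1, a plexin receptor of semaphorins, was 0.43 higher (adjusted p = 0.0575), Gria2, a subunit of AMPA receptors, 0.27 higher (adjusted p = 0.0992), and Zmiz1, a transcriptional coregulator, 0.26 higher (adjusted p = 0.192).

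The other 2 groups give the scale of these differences, side by side and without a test, since all share arrays or a spread. Lrp1 averaged 11.96 log2 units with MSC-EVs, 11.58 with IL4-EVs, 11.18 with i-EVs and 10.45 in CTRL cells. Nf1 averaged 11.54 with MSC-EVs, 11.20 with IL4-EVs, 10.89 with i-EVs and 10.27 in CTRL cells. In both genes the i-EVs mean lay between the MSC-EVs and the CTRL mean. Sdhd averaged 10.64 with MSC-EVs, 10.73 with IL4-EVs, 11.13 with i-EVs and 11.78 in CTRL cells, and Cox6b1 14.91, 15.02, 15.37 and 15.77 in the same order of groups. Mt2 did not follow this order: it averaged 9.37 with MSC-EVs, 9.20 with IL4-EVs and 9.48 in CTRL cells, all below each of the i-EVs arrays given above. Over very long mRNAs, the median level relative to the i-EVs mean was 0.32, 0.28 and 0.49 with MSC-EVs, 0.11, 0.23 and 0.19 with IL4-EVs, and -0.30, -0.18 and -0.18 in CTRL cells. Over complexes II to V it was -0.26, -0.26 and -0.25 with MSC-EVs, -0.22, -0.28 and -0.20 with IL4-EVs, and 0.27, 0.22 and 0.20 in CTRL cells.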

How the data were processed

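RNA of primary mouse OPCs was hybridised to Clariom D arrays, 12 in all and 3 per group, and the groups and replicate numbers were those of the sample labels. The authors deposited RMA intensity values (background-corrected, quantile-normalized over the 12 arrays, summarized per transcript cluster) on a linear scale that runs over 3.34 to 999968. TAC 4.0 is named in the methods and Affymetrix Expression Console in the submitters' notes, while for the array annotation no genome build is given in the sources used here. The same intensity values stood in a second deposited table. The table has 65535 clusters and ends within chromosome 19, so genes beyond that point are not analysed here. RMA draws all arrays to one distribution, so a shift common to all genes cannot be seen.

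Values were taken to log2 without a pseudocount. Of the clusters 30404 carried 1 symbol, and the cluster with the highest mean over the 12 arrays stood for its gene, which left 30077 named genes. Gene classes, spans and promoters came from RefSeq tables (GRCm38.p6). Clusters were matched to RefSeq genes by Entrez identifier, or by symbol where that failed, and spans were looked up by the matched symbol. limma 3.58.1 (R 4.3.3) fitted 4 group means on all arrays (8 residual and 3.46 prior degrees of freedom), with the contrast MSC-EVs minus i-EVs and Benjamini-Hochberg adjustment over all clusters. Both a 1.5-fold difference and an adjusted p under 0.05 were asked of DEGs. Genes were named if they were among the 15 largest rises or 10 largest falls with no overlap between the groups and a mean of 6 log2 units or more, were still called without MSC-EVs replicate 3 and i-EVs replicate 2, had one of the 3 smallest p in a list, or are named by the study. Luc7l3, Rbm25, Srrm2, Son, Malat1, Kcnq1ot1, Enpp6, Olig2, Sox9, Rps10-ps2 and Gm10177 were chosen after their values were seen. On simulated data (200 of 65535 clusters changed) limma recovered 58.2% of 1.5-fold, 92% of 2-fold and 98.5% of 3-fold changes. The simulated noise was independent between clusters and arrays and held no deviating array. These rates therefore may not carry over to the real arrays. Alternatives were other scalings, filters, moderation, array weights, a replicate block, the 6 arrays alone and each array left out. The members and gene lists were chosen with earlier results of these data known. The methods call the replicates independent without saying that they came from separate cultures, so p-values stand for the spread between these samples only, and that spread may be technical. The number of arrays, 3 per group, limits the precision.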

Additional observations from a re-analysis of the deposited data

How the results depend on the processing

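The count of 524 DEGs was 841 with a replicate block, 168 with array weights, 89 with a fold of at least 2, 11 without MSC-EVs replicate 3 and i-EVs replicate 2, 5 in the plain linear model without moderation and 0 on the 6 arrays alone, and leaving out 1 array at a time gave 9 to 1362. The count of 952 clusters at adjusted p under 0.05 was 1620 among clusters with a mean of at least 6 log2 units, 1510 with the replicate block, 258 with array weights, 14 in the plain model, 12 without both arrays and 0 on the 6 arrays alone (7626 at unadjusted p under 0.05), with 10 to 2076 when 1 array was left out. The low ends came without i-EVs replicate 1 and the high ends without MSC-EVs replicate 2, and the cause was not tested. Quantile normalization over again gave 467 DEGs, cyclic loess 562, the filter on dim clusters 613 and trended robust moderation 392. Deviations of same-numbered MSC-EVs and i-EVs arrays correlated at 0.305, -0.0296 and -0.0225 for replicates 1, 2 and 3, over clusters with a mean of at least 6 log2 units. Between all groups, same-numbered arrays correlated at 0.0898 to 0.33 for replicate 1 and at -0.299 to 0.204 for replicates 2 and 3. The correlations were thus all positive for replicate 1 and of both signs for replicates 2 and 3, with some of those inside the replicate 1 range. Whether same-numbered arrays were paired was not tested. With the block, 261 of the 295 named calls were also called. Of the 78 genes named with values 54 were called with all arrays. Over 1133 values of these 54 genes under the alternatives 505 (44.57%) lost the call, 628 kept it and 0 changed sign, and a gene was called in 2 to 17 of 21 settings. Leaving out arrays could not change these signs, since the groups did not overlap in genes that were called. Malat1, Ndufb11, Ndufs8 and Psmd6 lost the call with the block. Among the 24 other genes 22 values gained the call and 13 changed sign. Leaving out 1 array at a time, the log2 difference ran over -1.84 to 0.053 for Bmp4, -1.80 to 0.45 for Enpp6, -0.35 to 0.074 for Gpr17, -0.21 to 0.13 for Mbp and -0.21 to 0.59 for Vim, with the change of sign without MSC-EVs replicate 3. It ran over -0.059 to 0.082 for Tnf (-0.047 without i-EVs replicate 3) and -0.085 to 0.0013 for Olig2 (0.026 with cyclic loess). Without both arrays it was 0.041 for Gpr17, 0.057 for Mbp, 0.37 for Enpp6 and -0.20 for Vim. Clusters with a mean under 6 log2 units lie near the background signal, which limits what can be seen for dim genes.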

Other observations

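Gene groups that the text has not described gave few calls. Of 55 genes of ER to Golgi transport and N-glycosylation 8 fell with MSC-EVs relative to i-EVs (Arf5, Cope, Ddost, Ergic3, Krtcap2, Rab1b, Trappc3 and Yipf3) and 2 rose (Glg1 and Golga4), and the median log2 difference was -0.10. Of 10 subunits of the COP9 signalosome, which removes the ubiquitin-like modifier NEDD8 from ubiquitin ligases, 2 fell (Cops6 and Gps1), with a median of -0.18, and of 24 RNA polymerase subunits 2 fell (Polr1d and Polr2e), with a median of -0.11. These 3 lists were added after the data were seen. Limma called 0 of 15 glycolysis genes (5 at unadjusted p under 0.05), with a median of -0.14, and Ldhb, a lactate dehydrogenase, was 0.40 lower on the log2 scale (adjusted p = 0.0606). It called 0 of 31 replication-dependent histones (1 at unadjusted p under 0.05), whose median of -0.03 was -0.35 without both arrays. Of 914 small nuclear RNA genes, many of them near-identical copies, 7 rose and 1 fell, and of 573 microRNA genes 1 fell, Mir196a-2. Over all named genes 0.449% rose and 0.532% fell. The cluster shared by Snora34 and Mir1291 was among the 12 clusters at adjusted p under 0.05 without both arrays, at a log2 difference of 1.98.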
